A study of Mus musculus with 12 samples.

Results

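Lysosome and phagocytosis genes were followed through the liver and the dorsal skin CX3CR1+ cells of mice given carbon tetrachloride (CCl4) or vehicle. The set holds 30 genes, found by their mouse symbols among the 57180 genes of the deposited expression table, and none was missing. It has 9 proteases, 9 genes of glycan and lipid breakdown, 7 genes of the lysosomal membrane, its acidification and its control, and 5 phagocyte receptors and adaptors. The 12 libraries form 4 groups of 3. Liver RNA came from C57 mice given CCl4, a solvent that injures hepatocytes, or vehicle, and was sequenced in bulk. The samples are labelled liver, the word used here, although the design text names hepatocytes. The skin cells were taken from Cx3cr1-creER:Ai9 mice given CCl4 or vehicle, and smart-seq, which copies whole transcripts from very little RNA, gave their libraries. In these mice an inducible Cre recombinase under Cx3cr1 control switches on a red fluorescent reporter, so the label can also mark cells that carried CX3CR1 earlier. The design text gives 3 biological replicates per group. The sources used here do not give the dose, time, route, sex or age, nor the way the skin cells were sorted.

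Lysosomes are acid compartments in which proteases, glycosidases and lipases break down what a cell takes up or recycles. A proton pump, the V-ATPase, keeps them acid, and glycoproteins such as LAMP1 and LAMP2 line their membrane. In liver, hepatocytes hold many lysosomes for their own turnover, while Kupffer cells and recruited macrophages engulf debris and dying cells through receptors such as AXL and MERTK. Skin macrophages and dendritic cells use the same machinery to digest cargo and to present antigen.

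All values are TPM, transcript levels corrected for length and scaled to a total of 1000000 in each library, so a gene that takes more of a library lowers every other value in it. Genes encoded in the mitochondrial genome took 18.0 ± 1.22% of TPM in vehicle livers and 53.1 ± 5.68% in CCl4 livers (SD, n = 3 each, exact permutation p = 0.1, the smallest that 3 against 3 allows). Together with 6 nuclear pseudogenes that share at least 50% of their 31-base words with mitochondrial genes, they took 26.7% and 76.8%. Liver changes are therefore given on 3 scales: TPM as deposited, which is the main one, TPM after median-ratio scaling, and TPM rescaled to that total without these mitochondrial genes and copies. The median log2 change in liver was -0.59 on the first scale and -0.11 on the second, over all 10385 genes tested, and 0.85 on the third, over 10364. In skin, mitochondrial genes took 0.462 to 2.80% of TPM, and the 3 medians were -0.05, 0.02 and -0.06. A skin library stood apart: in CCl4 replicate 3 the 7 macrophage markers summed to 11.01 TPM, against 748 to 5690 TPM in the other 5 skin libraries. Cx3cr1 itself was low in the cells named for it, at 3.91, 0.27 and 0.91 TPM in the vehicle libraries and 5.28, 0.00 and 0.28 TPM in the CCl4 libraries. Sequencing depth is unknown, since TPM hold none, so no counting error can be given.

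In liver, the 5 phagocyte receptors and adaptors and the proteases Ctss and Lgmn rose with CCl4 on all 3 scales. The 7 rises ran from 1.34 to 3.0 in log2(TPM + 1), for Mertk and Ctss, and every rise held a Benjamini-Hochberg adjusted p under 0.05 in limma on each scale. In TPM as deposited, 12 members fell, among them Lamp1, Lamp2, Ctsh and Lipa, and 11 passed in neither direction. Those falls depended on the scale: 4 of the 12 passed after median-ratio scaling and 0 in TPM rescaled without mitochondrial genes and copies, where 25 members rose. Against these counts, 10.3% of all genes tested rose and 51.1% fell in TPM as deposited. So 7 of 30 is above the background share of rises, and 12 of 30 is near that of falls and somewhat below it. The genes were chosen with earlier results of these data known, so these shares describe the list and do not test it. After median-ratio scaling 17.7% of all genes rose and 26.2% fell, and without mitochondrial genes and copies 66.8% rose and 4.2% fell. CCl4 values lay below all vehicle values in 16 members and in 58.8% of all genes. The median log2 change of the members was -0.30, and 19 of 30 lay above the median of all genes. With a library left out, the number of members that rose stayed at 7, the same 7 genes each time. The number that fell was 6, 6 and 5 without vehicle replicate 1, 2 or 3, and 8, 11 and 13 without CCl4 replicate 1, 2 or 3. In a single fit over all 12 libraries, which takes its error from the more variable skin libraries as well, 4 rose and 3 fell, and Lgmn, Axl and Mertk were among those lost.

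**Figure D1:**
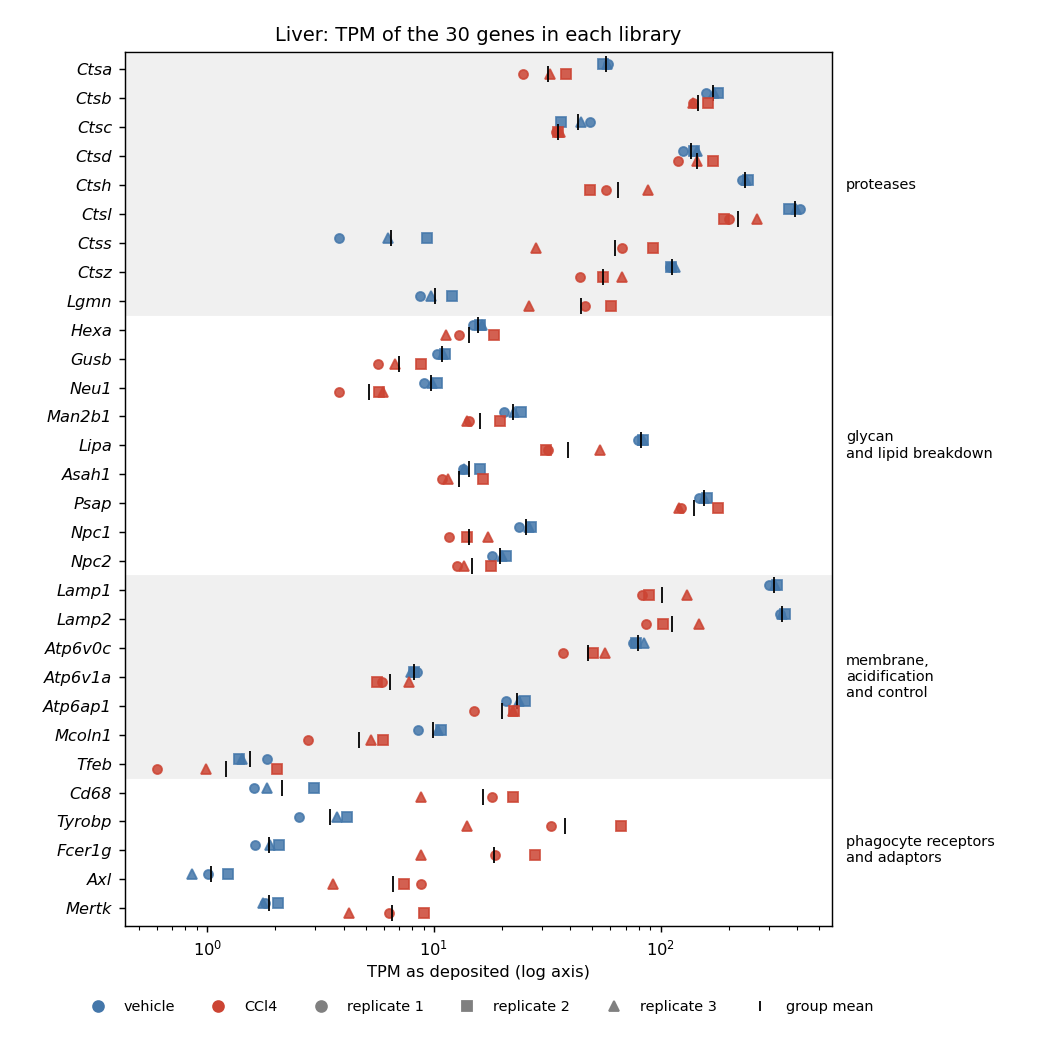
TPM as deposited (log axis) of the 30 genes in each of the 6 liver libraries, grouped by role. Colours give the treatment, shapes the replicate and black bars the group means of 3 libraries. All 5 phagocyte receptors and adaptors, Ctss and Lgmn lie higher in each CCl4 library than in any vehicle library, while Lamp1, Lamp2 and Ctsh lie lower.

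The phagocyte receptors and adaptors were, with Tfeb, the members lowest in vehicle liver, and in TPM as deposited theirs was the only role in which all members rose. Tyrobp (ENSMUSG00000030579) encodes DAP12, the adaptor that carries the signal of TREM2 and other myeloid receptors. It stood at 2.55, 4.13 and 3.74 TPM in the vehicle livers and at 32.7, 67.2 and 13.97 TPM in the CCl4 livers. The groups did not overlap, and the log2 change was 2.88 ± 0.44 (SE, adjusted p = 0.000441, limma). Fcer1g (ENSMUSG00000058715), the shared signalling chain of several Fc receptors, stood at 1.63, 2.07 and 1.90 TPM and then at 18.5, 27.9 and 8.77 TPM. It rose by 2.63 ± 0.34 in log2 (adjusted p = 0.00017). Cd68 (ENSMUSG00000018774), a heavily glycosylated membrane protein of macrophage lysosomes, was listed at 1.61, 2.95 and 1.83 TPM under vehicle, and at 18.1, 22.3 and 8.80 TPM under CCl4. Its rise was 2.41 ± 0.32 in log2 (adjusted p = 0.000193).

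Both TAM receptor tyrosine kinases among the members also rose. Axl (ENSMUSG00000002602), which binds GAS6 bound to phosphatidylserine on dying cells, moved from 1.01, 1.24 and 0.86 TPM to 8.81, 7.37 and 3.58 TPM. The change was 1.83 ± 0.27 in log2 (adjusted p = 0.000333). With vehicle replicate 3 under 1 TPM, Axl met the filter of 1 TPM in 3 libraries only with the help of CCl4 libraries. Mertk (ENSMUSG00000014361), the TAM receptor of resting macrophages, moved from 1.79, 2.05 and 1.77 TPM to 6.31, 9.07 and 4.20 TPM, a change of 1.34 ± 0.24 (adjusted p = 0.001). None of the 5 genes overlapped between the groups, as was so for 11.4% of all genes tested in this direction. In all 5, and in Ctss and Lgmn, CCl4 replicate 3 was the lowest of the CCl4 libraries. Without mitochondrial genes and copies the changes were 4.64 for Tyrobp, 4.41 for Fcer1g, 4.18 for Cd68, 3.57 for Axl and 3.03 for Mertk, where the median gene changed by 0.85. Summed over the 5 genes, replicate 3 held 39.3 TPM, against 84.4 and 134 TPM in CCl4 replicates 1 and 2 and 8.59 to 12.4 TPM in the vehicle livers.

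Among the 9 proteases, 2 rose and 4 fell in TPM as deposited, where 10.3% of all genes tested rose and 51.1% fell. Ctss (ENSMUSG00000038642), the cysteine protease that cleaves the invariant chain of MHC class II in antigen-presenting cells, stood at 3.80, 9.31 and 6.30 TPM under vehicle, and at 67.3, 92.2 and 28.3 TPM under CCl4. Its log2 change of 3.0 ± 0.42 (adjusted p = 0.000279) was the largest of the 30. Lgmn (ENSMUSG00000021190), an asparaginyl endopeptidase that also matures other cathepsins, moved from 8.64, 12.01 and 9.72 TPM to 46.6, 60.5 and 26.2 TPM, or by 1.96 ± 0.33 (adjusted p = 0.000658). The aminopeptidase Ctsh (ENSMUSG00000032359) went the other way, from 228, 243 and 238 TPM to 57.3, 48.9 and 88.2 TPM. It fell by 1.89 ± 0.32 in TPM as deposited (adjusted p = 0.000677) and by 1.28 after median-ratio scaling (adjusted p = 0.00281), and its change was -0.20 without mitochondrial genes and copies, where it did not pass.

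Ctsl, the endopeptidase with the highest vehicle level of the 30 in liver, stood at 411, 368 and 395 TPM and then at 201, 190 and 266 TPM. Ctsz, an exopeptidase, went from 110, 111 and 116 TPM to 43.9, 55.5 and 67.8 TPM. Ctsa, the carboxypeptidase that also shields NEU1 from degradation, went from 58.5, 55.6 and 57.8 TPM to 24.8, 38.1 and 32.3 TPM. The groups did not overlap in any of these 3 genes. Ctsl, Ctsz and Ctsa changed by -0.85, -1.02 and -0.85 in TPM as deposited (adjusted p = 0.0269, 0.0113 and 0.0216). None of these 3 passed after median-ratio scaling, and all 3 rose without mitochondrial genes and copies, by 0.86, 0.67 and 0.83. The calls of Ctsa and Ctsl were also lost in 4 and 5 of the 6 fits with a library left out, and that of Ctsz without any 1 of the vehicle libraries. Ctsb, Ctsc and Ctsd, an endopeptidase, a dipeptidyl peptidase and an aspartic protease, passed in neither direction as deposited. Ctsb stood at 159, 178 and 173 TPM under vehicle, then at 138, 161 and 139 TPM, and Ctsc at 48.9, 36.3 and 44.4 TPM, then at 34.5, 35.1 and 36.2 TPM. Ctsb overlapped between the groups, and the CCl4 libraries of Ctsc all lay just below its lowest vehicle library. Ctsd, at 125, 140 and 144 TPM with vehicle and 119, 170 and 144.8 TPM with CCl4, overlapped between the groups, although it rose by 0.68 after median-ratio scaling (adjusted p = 0.0242).

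Of the 9 genes of glycan and lipid breakdown, 4 fell in TPM as deposited and 0 rose, where 51.1% of all genes tested fell and 10.3% rose. Lipa (ENSMUSG00000024781), the acid lipase that frees cholesterol and fatty acids from lipoprotein lipids, stood at 79.5, 83.5 and 83.2 TPM under vehicle, and at 32.0, 31.1 and 53.9 TPM under CCl4. The fall was 1.10 ± 0.31 (adjusted p = 0.00966), the change after median-ratio scaling was -0.50 (adjusted p = 0.049), and on the third scale the sign turned, to a rise of 0.58. Without vehicle replicate 3 the fall of Lipa no longer passed (adjusted p = 0.0512). The other falls were those of Neu1, a sialidase, Npc1, the membrane exporter of lysosomal cholesterol, and Gusb, beta-glucuronidase, at -0.81, -0.81 and -0.57 (adjusted p = 0.00996, 0.0184 and 0.0477). Neu1 moved from 9.02, 10.3 and 9.79 TPM to 3.82, 5.74 and 5.99 TPM, Npc1 from 23.6, 26.8 and 26.3 TPM to 11.7, 14.1 and 17.3 TPM, and Gusb from 10.3, 11.2 and 10.97 TPM to 5.67, 8.73 and 6.73 TPM, with no overlap in any. None of these 3 passed after median-ratio scaling, and without mitochondrial genes and copies they rose by 0.74, 0.84 and 1.02. The falls of Npc1 and Gusb were also lost without any 1 of the vehicle libraries. The soluble cholesterol carrier Npc2, the hexosaminidase subunit Hexa, the alpha-mannosidase Man2b1, the acid ceramidase Asah1 and Psap, the precursor of the saposins, changed by -0.48 to -0.15, and none passed. Npc2 stood at 17.97, 20.7 and 20 TPM and then at 12.7, 17.9 and 13.6 TPM, and Man2b1 at 20.4, 24.2 and 22.6 TPM and then at 14.3, 19.6 and 13.96 TPM. In both genes the CCl4 libraries lay below the vehicle libraries, by a narrow gap. Hexa, at 14.9, 16.0 and 16.2 TPM and then 12.9, 18.5 and 11.3 TPM, overlapped, as did Asah1, at 13.4, 15.9 and 13.6 TPM and then 10.9, 16.5 and 11.5 TPM. Psap was the most abundant of the role, at 148, 161 and 155 TPM with vehicle and 123, 178 and 120 TPM with CCl4, so its groups overlapped.

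Membrane and acidification genes had the lowest median of the 4 roles in TPM as deposited, at -0.73, with 4 of 7 fallen and 0 risen. This was near the values of all genes tested, with a median of -0.59 and 51.1% fallen. After median-ratio scaling the medians were -0.12 for the role and -0.11 for all genes. Lamp1 (ENSMUSG00000031447) stood at 299, 327 and 321 TPM under vehicle, and at 82.5, 89.1 and 131 TPM under CCl4. Lamp2 (ENSMUSG00000016534) stood at 335, 354 and 343 TPM and then at 86.6, 102 and 147 TPM. The groups did not overlap in either gene, with a vehicle mean 3.13 and 3.07 times the CCl4 mean. Lamp1 fell by 1.66 ± 0.31 and Lamp2 by 1.65 ± 0.31 as deposited (adjusted p = 0.0011 and 0.00124), and by 1.05 and 1.03 after median-ratio scaling (adjusted p = 0.00279 and 0.003). Without mitochondrial genes and copies the same genes changed by 0.03 and 0.05, below the 0.85 of the median gene, and did not pass.

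Mcoln1, the calcium channel of the lysosomal membrane, and Atp6v0c, the proton-conducting ring subunit of the V-ATPase, fell by 0.98 and 0.73 as deposited (adjusted p = 0.0078 and 0.0474). Mcoln1 moved from 8.48, 10.8 and 10.5 TPM to 2.79, 5.98 and 5.27 TPM, and Atp6v0c from 75.5, 77.5 and 84.3 TPM to 36.95, 50.4 and 56.7 TPM. Neither gene overlapped between the groups. Neither passed after median-ratio scaling, and on the third scale Atp6v0c rose by 0.96, while Mcoln1 changed by 0.53 and did not pass. Atp6v0c has annotated pseudogenes whose reads could be shared with it, so its level is less certain. Its call was lost in 5 of the 6 fits with a library left out. Atp6v1a, the catalytic subunit of the pump, Atp6ap1, its accessory subunit, and Tfeb, the transcription factor that drives lysosomal genes, passed in neither direction as deposited, at -0.32, -0.23 and -0.26. Atp6v1a stood at 8.39, 8.18 and 7.91 TPM and then at 5.89, 5.61 and 7.73 TPM, and Atp6ap1 at 20.7, 25.2 and 23.6 TPM and then at 14.96, 22.6 and 22.2 TPM, with overlap in Atp6ap1 alone of the pair. Tfeb was among the lowest members, at 1.84, 1.38 and 1.43 TPM with vehicle and 0.60, 2.03 and 0.99 TPM with CCl4.

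TFEB and its relatives bind the E-box CACGTG, often as the palindrome TCACGTGA, near the starts of lysosomal genes. RefSeq promoter windows of 300 bases, from 250 before to 50 after a start on GRCm38.p6, were at hand for 25 of the 30 members. They were not at hand for Ctsb, Ctsh, Asah1, Npc1 and Tyrobp. CACGTG, which reads the same on both strands, occurred in 7 of the 25 members (28%) and in 8.09% of 27025 genes. TCACGTGA, which holds CACGTG within it, occurred in 4 of 25 (16%) and in 1.12% of genes. The motif was looked for after the expression values were known. The holders were Ctsa, Ctsd, Ctsl, Lgmn, Lamp1, Mcoln1 and Atp6v1a. None of the 4 phagocyte receptors and adaptors with a window held it, nor did any of the 7 genes of glycan and lipid breakdown with a window. Members without it included some that fell in liver as deposited, such as Lamp2, Ctsz and Lipa. In the stretches shown here, 5′ to 3′ along the gene, capitals mark CACGTG in 5 holders. Ctss, Cd68 and Fcer1g, which rose in liver and hold none in their windows, are shown over the bases just before their starts.
Lamp1, chr8:13159081-13159160, plus strand: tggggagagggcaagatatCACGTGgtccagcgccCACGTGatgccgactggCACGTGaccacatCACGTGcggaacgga
Mcoln1, chr8:3500429-3500498, plus strand: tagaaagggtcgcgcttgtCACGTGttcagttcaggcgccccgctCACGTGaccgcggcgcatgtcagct
Ctsa, chr2:164833743-164833787, plus strand: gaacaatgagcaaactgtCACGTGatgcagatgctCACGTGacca
Ctsd, chr7:142387898-142387937, minus strand: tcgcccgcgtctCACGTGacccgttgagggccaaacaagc
Atp6v1a, chr16:44139365-44139409, minus strand: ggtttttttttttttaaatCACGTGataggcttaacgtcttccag
Ctss, chr3:95526706-95526785, plus strand: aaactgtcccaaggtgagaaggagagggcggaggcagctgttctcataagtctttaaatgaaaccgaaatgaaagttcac
Cd68, chr11:69666171-69666250, minus strand: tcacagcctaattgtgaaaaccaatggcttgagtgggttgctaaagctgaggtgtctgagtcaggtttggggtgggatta
Fcer1g, chr1:171234350-171234429, minus strand: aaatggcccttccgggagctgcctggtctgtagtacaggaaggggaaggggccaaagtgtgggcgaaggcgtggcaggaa
Lamp1 carried 4 copies, whose first bases lie at -61, -45, -28 and -15 from the start, and Mcoln1 carried 2, at -71 and -45. Holders included members of either direction in liver. As deposited, Lamp1, Mcoln1, Ctsa and Ctsl fell, Lgmn rose, and Ctsd and Atp6v1a passed in neither direction.

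**Figure D2:**
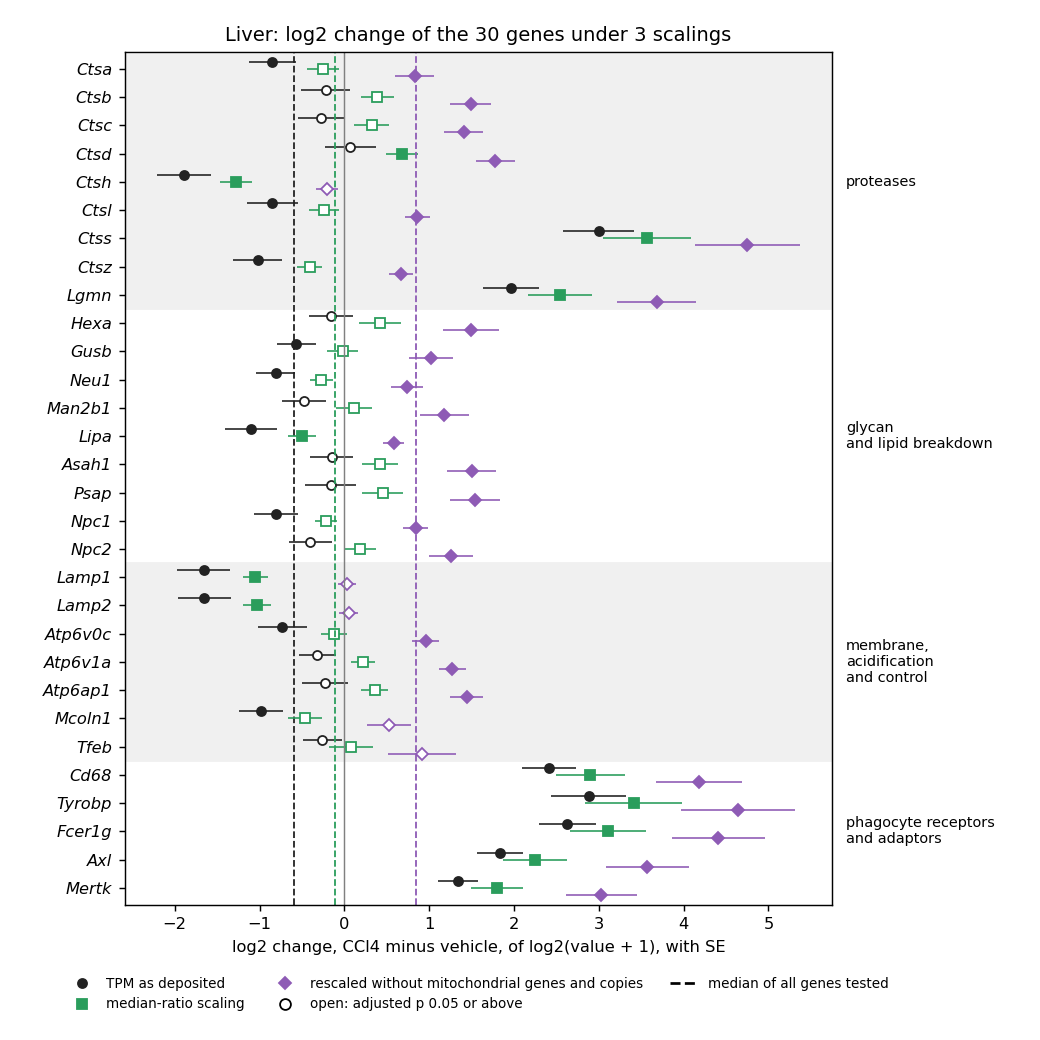
Log2 change in liver, CCl4 minus vehicle, of log2(value + 1) for the 30 genes on 3 scales, with standard errors from 3 libraries per group. Filled symbols passed an adjusted p of 0.05 and dashed lines mark the median of all genes tested, at -0.59, -0.11 and 0.85. Ctss, Lgmn and the phagocyte receptors and adaptors lie above 0 and above the median on each scale, whereas Ctsh, Lamp1 and Lamp2 lie below the median on each scale.

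Cell type markers moved in liver beside these genes. The 7 macrophage markers, Clec4f and Vsig4 of Kupffer cells among them, summed to 24.2, 63.2 and 41.4 TPM with vehicle and to 268, 272 and 104 TPM with CCl4. All 7 rose, with a median log2 change of 2.12, beside 2.41 for the 5 phagocyte receptors and adaptors. That closeness was not particular to macrophage markers. Medians were 2.28 for stellate and fibroblast, 2.32 for monocyte, 2.71 for endothelial and 3.95 for neutrophil markers. In that order, they covered the 5, 2, 6 and 4 tested genes of the 6 in each list. Genes under 1 TPM with vehicle, all neutrophil markers among them, were tested only through their CCl4 levels, which leans such medians upwards. Neutrophil markers summed to at most 0.86 TPM with vehicle and to 108, 352 and 33.0 TPM with CCl4. Endothelial markers went from 15.6 to 20.1 TPM up to 103 to 322 TPM, and stellate and fibroblast markers from 6.94 to 10.1 TPM up to 72.0 to 149 TPM. The 6 hepatocyte markers, Alb among them, went from 56803, 63622 and 61327 TPM down to 11591, 14135 and 28080 TPM. All 6 fell as deposited, with a median of -2.19, and without mitochondrial genes and copies 3 fell and 1 rose, with a median of -0.48. In TPM as deposited, CCl4 replicate 3, lowest for the 7 rising members, was also the lowest CCl4 library for macrophage markers. It was the highest for hepatocyte markers, Lamp1, Lamp2, Ctsh and Lipa. Mitochondrial genes and copies took 68.1% of its TPM, against 82.1% and 80.2% in CCl4 replicates 1 and 2. The order of these libraries can therefore differ between the scales. The part of these cell types in the member changes was not tested, and in bulk liver a change in the number of cells of a type and one in RNA per cell cannot be told apart.

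Among further lysosomal genes, listed by function apart from the 30, the number of falls again depended on the scale. Of 44 other lysosomal enzymes and membrane proteins, 40 were tested, and 2 rose while 25 fell in TPM as deposited. Counts after median-ratio scaling were 2 and 12, and on the third scale 30 and 0. Over all genes tested, 10.3% rose and 51.1% fell as deposited. These shares were 17.7% and 26.2% after median-ratio scaling, and 66.8% and 4.2% on the third scale. The rises were those of Cd63, a tetraspanin of late endosomes, and Laptm5, a lysosomal membrane protein of blood cells. Cd63 stood at 0.86, 0.57 and 1.05 TPM under vehicle, and at 21.0, 23.2 and 19.4 TPM under CCl4, a log2 change of 3.61 ± 0.21 (adjusted p = 9.6e-07). The lowest p among the falls belonged to Slc17a5, the sialic acid exporter, with -1.45 ± 0.21 (adjusted p = 0.000356) as deposited, -0.97 after median-ratio scaling (adjusted p = 0.00209) and -0.11 without mitochondrial genes and copies.

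Of the 13 other V-ATPase subunits, 0 rose and 5 fell as deposited, against 10.3% and 51.1% of all genes tested. After median-ratio scaling 1 rose and 1 fell, against 17.7% and 26.2% of all genes. Without mitochondrial genes and copies all 13 rose, as did 66.8% of all genes. Among 9 tested regulators of lysosomes, 1 rose and 5 fell as deposited, against 2 and 1 after median-ratio scaling and 8 and 0 on the third scale. The riser was Tfec, a TFEB relative of myeloid cells, with a log2 change of 1.31 ± 0.24 (adjusted p = 0.00111). It stood at 0.30, 0.34 and 0.18 TPM with vehicle and 2.26, 3.44 and 1.16 TPM with CCl4, so it was tested only through its CCl4 level. Without any 1 of the CCl4 libraries 0 regulators rose, since Tfec then missed the filter and was not tested. Lamtor2, part of the scaffold that recruits the mTORC1 kinase to lysosomes, fell by 1.47 ± 0.30 as deposited (adjusted p = 0.00198) and by 0.87 after median-ratio scaling, and changed by 0.19 on the third scale. Of 30 other phagocytosis genes, 21 were tested, and 19 rose and 0 fell as deposited, with 20 and 21 rises on the other scales. A gene under 1 TPM with vehicle is tested only if CCl4 brings it past the filter, so the counts of rises in these lists lean upwards. Trem2, a lipid-sensing receptor that signals through the product of Tyrobp, stood at 0.01, 0.05 and 0.16 TPM under vehicle, and at 8.43, 9.79 and 3.20 TPM under CCl4. Its log2 change was 2.81 ± 0.30 (adjusted p = 6.87e-05), and those of Mfge8, a bridge to dying cells, and Mrc1, the mannose receptor, were 1.96 ± 0.23 and 2.66 ± 0.35 (adjusted p = 9.75e-05 and 0.000203).

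The order of the members differed between vehicle liver and the vehicle skin cells. Ctsl, Lamp2, Lamp1 and Ctsh led in liver, with means of 391 ± 22.0, 344 ± 9.52, 316 ± 14.5 and 236 ± 7.56 TPM (SD, n = 3). Neighbouring levels of Ctsl and Lamp2, and of Lamp2 and Lamp1, did not overlap between libraries. Fcer1g, Ctsb, Tyrobp, Ctss and Atp6v0c led in skin, with 3187 ± 1464, 2691 ± 1862, 2098 ± 1097, 1384 ± 360 and 1281 ± 426 TPM. Neighbours in that skin order overlapped between libraries. In 21 of 30 members every vehicle skin library lay above every vehicle liver library, and in 0 every one lay below. Over all genes measured in both tissues these shares were 49% and 12.8%. The 9 members whose levels overlapped were Ctsh, Ctsl, Man2b1, Lipa, Psap, Npc1, Lamp1, Lamp2 and Mertk. Mertk was the lowest member in skin, at 1.06, 9.25 and 0.74 TPM. Tissue, strain and library method differ together between liver and skin and cannot be told apart, so no test was made.

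In the skin cells no member passed the test. Standard errors of the member differences were 0.49 to 1.08 in log2, against 0.22 to 0.44 in liver, so a p that missed the threshold does not show that a level was unchanged. Of 13767 genes tested, 0 were called (0%) by limma, 288 had an unadjusted p under 0.05, and 2 of these, Ctss and Tyrobp, are members. In the fit over all 12 libraries 1 gene and 0 members were called. Ctss and Tyrobp were both lower in each CCl4 library than in any vehicle library. Ctss stood at 979, 1669 and 1504 TPM under vehicle, and at 689, 606 and 77.8 TPM under CCl4, a log2 difference of -2.07 ± 0.82 (limma, unadjusted 0.0311, adjusted p = 1.0). Tyrobp stood at 1468, 1463 and 3365 TPM and at 1252, 765 and 70.2 TPM, a difference of -2.24 ± 0.98 (limma, unadjusted 0.0476, adjusted p = 1.0). Without CCl4 replicate 3, which has the lowest value of both genes, neither p was under 0.05, and the differences were -1.06 and -0.98. Hexa had the next lowest p among the members, with 109, 296 and 181 TPM under vehicle, 80.6, 118 and 40.1 TPM under CCl4 and overlapping groups. Ctsc and Gusb were the other members whose groups did not overlap. Ctsc, which activates granule serine proteases, stood at 618, 1037 and 591 TPM under vehicle, and at 483, 344 and 411 TPM under CCl4. Gusb stood at 42.6, 58.8 and 53.5 TPM and at 23.0, 28.0 and 23.8 TPM, and its CCl4 libraries lay close together. CCl4 values lay below all vehicle values in 4 of 30 members and above them in 0, against 2.72% and 2.56% of all genes tested. Leaving out a CCl4 library cannot undo such a gap, and without CCl4 replicate 3 no further member lay below.

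**Figure D3:**
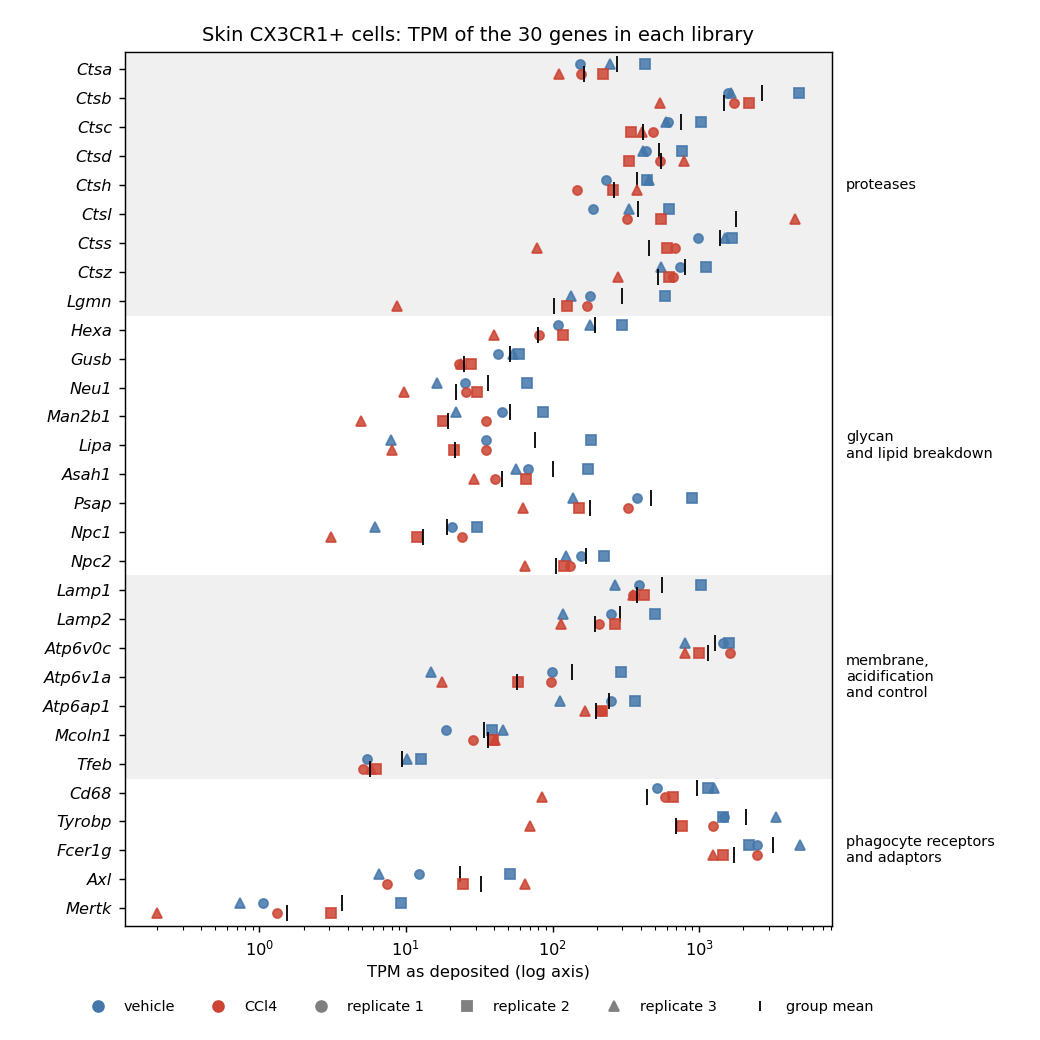
TPM as deposited (log axis) of the 30 genes in each of the 6 libraries of skin CX3CR1+ cells, grouped by role, with colours for treatment, shapes for replicate and black bars for the means of 3 libraries. Groups overlap in 26 genes, and CCl4 replicate 3 is the lowest library for many of them and the highest by far for Ctsl.

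The other skin values leaned low with CCl4 but rested on few libraries. The log2 difference was below 0 in 26 of 30 members, with a median of -0.69 against -0.05 over all genes tested. Without CCl4 replicate 3 the median was -0.41, again with 26 below 0, and without vehicle replicate 2 it was -0.34 with 19 below 0. Both skin libraries with the number 1 had more detected genes, 28870 (vehicle) and 28357 (CCl4) above 0 TPM where the remaining 4 had 21328 to 23494, and without both of them the median was -1.05, with 27 of 29 members tested below 0. Vehicle replicate 2 held the highest value for many lysosomal enzymes. Ctsb, at 1571, 4840 and 1660 TPM with vehicle and 1730, 2185 and 537 TPM with CCl4, is one of them. Lgmn, at 181, 583 and 134 TPM and then 172, 126 and 8.74 TPM, is another. CCl4 replicate 3 was the lowest of the 6 libraries in 17 of 30 members, against 21.7% of all genes tested. It was the highest for Ctsl, at 4482 TPM, where the other CCl4 libraries held 320 and 552 TPM and the vehicle libraries 190, 625 and 332 TPM. The log2 difference of Ctsl was 1.44 ± 0.94 (adjusted p = 1.0), and 0.30 without that library.

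Summed over the 5 phagocyte receptors and adaptors, the vehicle libraries held 4493, 4863 and 9496 TPM and the CCl4 libraries 4341, 2907 and 1469 TPM. These sums did not overlap (exact permutation p = 0.1, the smallest that 3 against 3 allows). The gap was narrow, between 4493 TPM in vehicle replicate 1 and 4341 TPM in CCl4 replicate 1. The sum of all 30 members also gave an exact permutation p = 0.1. Sums of the other roles gave an exact permutation p = 0.6 for proteases and 0.2 for glycan and lipid breakdown. For membrane, acidification and control genes the exact permutation p was 0.7. Fcer1g led the sum of the receptors and adaptors, at 2496, 2196 and 4869 TPM and at 2498, 1455 and 1249 TPM. Cd68 stood at 516, 1143 and 1255 TPM and at 583, 660 and 84.1 TPM, with overlap in both genes. Marker levels also varied between these libraries. Macrophage markers summed to 754, 3842 and 5690 TPM with vehicle and to 748, 1415 and 11.01 TPM with CCl4, and the sum was carried mainly by C1qa and C1qb. In CCl4 replicate 3 C1qa stood at 1.38 TPM, C1qb at 5.86, Adgre1 at 1.65 and Csf1r at 2.12, each the lowest of the 6 libraries. The Kupffer cell markers Clec4f, Vsig4 and Cd5l were listed at 0 there and reached at most 2.27 TPM in any skin library. In the same library the neutrophil list summed to 582 TPM, against 21.1 to 92.5 TPM in the other 5, but S100a8 at 291 TPM and S100a9 at 288 TPM made up nearly all of it, and Csf3r, at 0.03 TPM, was the lowest of the 6. T and NK cell markers summed to 2424, 791 and 7233 TPM with vehicle and to 2615, 1165 and 1516 TPM with CCl4. Keratinocyte markers ranged from 360 to 1993 TPM. The part of these cell types in the member values was not tested. Of the further lists, 43 other lysosomal genes, 13 V-ATPase subunits, 9 regulators and 29 phagocytosis genes were tested in skin, 0 of each were called, and their median log2 differences were -0.39, -0.12, -0.17 and -1.68.

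**Figure D4:**
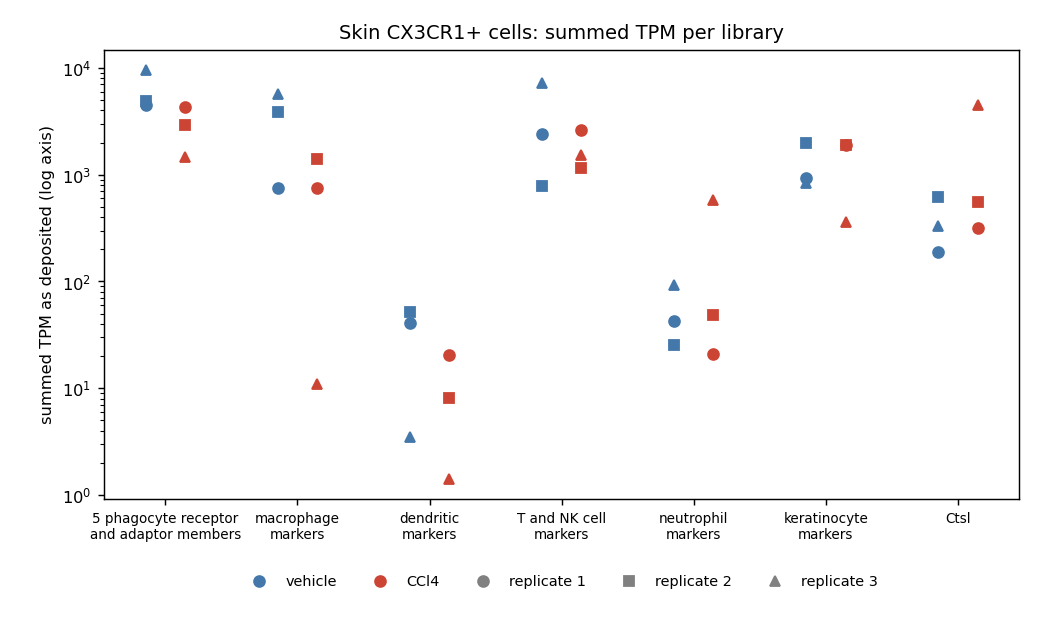
Summed TPM (log axis) in each skin library of the 5 phagocyte receptors and adaptors, of 5 lists of cell type markers, and of Ctsl alone. Colours give the treatment and shapes the replicate. CCl4 replicate 3 holds 11.01 TPM of macrophage markers, 582 TPM of neutrophil markers, nearly all S100a8 and S100a9, and 4482 TPM of Ctsl.

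Ctss and Tyrobp lay above all vehicle libraries in each CCl4 liver and below all vehicle libraries in each CCl4 skin library, and the difference between the tissues was tested directly. In 1 model over all 12 libraries, 20 of 9255 genes (0.216%) differed between the tissues in their change with CCl4, and 0 of these are members. The members nearest to the threshold were Fcer1g, Ctss, Tyrobp and Cd68. Their change in liver exceeded that in skin by 3.48 ± 0.65, 5.08 ± 1.02, 5.12 ± 1.24 and 3.91 ± 0.97 in log2 (adjusted p = 0.052, 0.0641, 0.0781 and 0.083). After median-ratio scaling, 2.23% of all genes and 3 members passed: Ctss at 5.55, Fcer1g at 4.01 and Cd68 at 4.43 (adjusted p = 0.0285, 0.033 and 0.0492). Without mitochondrial genes and copies, 5.93% of all genes and 10 members passed. With a library left out, 0 to 4 members passed as deposited. The count was 4 without skin CCl4 replicate 1, 2 without liver CCl4 replicate 3 or skin vehicle replicate 3, and 1 without skin CCl4 replicate 2 or 3.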

How the data were processed

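The 30 genes and all further lists were chosen with earlier results of these data known. The authors deposited 1 table of TPM for 57180 genes and 12 libraries. The submitters' processing notes name the build GRCm39 and the tools RSEM, StringTie, HISAT2 and fastp, without versions or roles. The labels give 1 poly(A) protocol for all libraries, which does not describe smart-seq. Symbols came from the name tables for 51884 IDs.

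Values were analysed as log2(TPM + 1), which understates changes of low genes, in R 4.3.3 with limma 3.58.1 (lmFit, eBayes with trend). Genes entered a test at a TPM of 1 or more in 3 or more of a tissue's 6 libraries, which all 30 members did in liver and in skin. Liver and skin were fitted separately, two-sided, and p-values were adjusted by Benjamini-Hochberg over all genes tested, with calls at 0.05. Tissues were compared in 1 model of 4 group means. Single sums used two-sided exact permutation tests. The fits were tested on simulated data. Median-ratio factors and the rescaling without 37 mitochondrial genes and 6 near copies were computed from the deposited TPM. Further alternatives were pseudocounts of 0.1 and 5, no filter, a filter at a TPM of 5, a replicate block, 1 fit over 12 libraries and leaving out libraries. Beside the 30 genes, the text names for each further list up to 3 called genes of lowest p in a direction. Replicate numbers come from the titles, and nothing says that they pair animals between groups. Some library names in both tissues carry other numbers than the titles. The replicate block followed the titles, and no block by library name was run.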

Additional observations from a re-analysis of the deposited data

Results flagged for a closer look

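For Ctss and Tyrobp, each CCl4 library moved above the vehicle libraries in liver and below them in skin. The change in liver exceeded that in skin by 5.08 ± 1.02 in log2 for Ctss and by 5.12 ± 1.24 for Tyrobp. The test of this difference over 9255 genes did not pass as deposited (adjusted p = 0.0641 for Ctss and 0.0781 for Tyrobp, limma). In skin the lowest value of both genes is that of CCl4 replicate 3, with 77.8 and 70.2 TPM.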

How the results depend on the processing

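The 7 rises in liver kept their direction under every alternative in which they were tested. Axl and Mertk were not tested at a filter of 5 TPM. Each rise tested passed, except those of Lgmn, Axl and Mertk in the fit over all 12 libraries. In that fit 4 members rose and 3 fell, with falls of 2, 0 and 0 among other lysosomal genes, V-ATPase subunits and regulators, 0 rises of regulators and 10 of other phagocytosis genes. After median-ratio scaling 4 members fell, 12, 1 and 1 of those 3 lists fell, 1 V-ATPase subunit and 2 regulators rose, and the sign turned for Ctsb 0.39, Ctsc 0.32, Hexa 0.42, Man2b1 0.11, Asah1 0.42, Psap 0.45, Npc2 0.18, Atp6v1a 0.22, Atp6ap1 0.36 and Tfeb 0.08 (log2, as all such values here). Without mitochondrial genes and copies 25 members rose and 0 fell, and 30, 13 and 8 of the 3 lists rose while 0 of each fell. There the sign turned for Ctsa 0.83, Ctsb 1.49, Ctsc 1.41, Ctsl 0.86, Ctsz 0.67, Hexa 1.49, Gusb 1.02, Neu1 0.74, Man2b1 1.18, Lipa 0.58, Asah1 1.50, Psap 1.54, Npc1 0.84, Npc2 1.26, Lamp1 0.03, Lamp2 0.05, Atp6v0c 0.96, Atp6v1a 1.27, Atp6ap1 1.44, Mcoln1 0.53, Tfeb 0.92, Ctsf 0.03, Ctso 0.25, Atp6v0a1 0.52, Atp6v1f 0.67, Atp6v0d1 0.70, Lamtor2 0.19, Mtor 0.64 and Rraga 0.77. With no filter 2 regulators rose, and at a filter of 5 TPM 0 did, with 9 other phagocytosis genes. Tfec, the regulator that rose as deposited, reached at most 3.44 TPM in liver, so it was not tested at a filter of 5 TPM. Nor was it tested without any 1 of the liver CCl4 libraries. Beyond the filter, the cause was not tested. Members that differed between the tissues numbered 3 at a pseudocount of 0.1, 3 after median-ratio scaling, 10 without mitochondrial genes and copies, and 8 when skin CCl4 replicate 3 was left out as well, a combination chosen after seeing the data. With a replicate block 7 members rose in liver and 9 fell, without Ctsl, Gusb and Atp6v0c, and 4 differed between the tissues. Deviations of libraries with the same title number correlated at -0.038, 0.08 and 0.068 in liver. In skin they correlated at 0.587, 0.092 and 0.35, where different numbers gave -0.509 to 0.158. Pairs in both tissues lay under 0.1, and skin CCl4 replicate 2 did not correlate best with its own number, so the numbers are not shown to pair samples. With a library left out in turn, falls ranged from 5 to 13 for members, 16 to 27 for other lysosomal genes, 2 to 11 for V-ATPase subunits and 2 to 5 for regulators, rises of regulators from 0 to 1, members that differed between tissues from 0 to 4, and the change of Ctsd from -0.05 to 0.20. No member passed in skin under any alternative run, with errors too large to read this as no change. The TPM hold no depth, so counting error could not be set against any value.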
